A study of Mus musculus with 12 samples.

Results

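The claudins and their partners in the tight junction were followed in the mouse ileum by taking, from the deposited expression table, every row whose gene name was Cldn2, Cldn3, Cldn4, Cldn7, Cldn8, Cldn15, Cldn23, Ocln, Tjp1 or F11r. All 10 names were found among the 44205 genes of the table, and all 10 passed the level needed for testing, with 17662 genes in all. Cldn2 and Cldn15 were taken as the pore-forming claudins (2 genes), Cldn3, Cldn4, Cldn7, Cldn8 and Cldn23 as the sealing claudins (5 genes), and Ocln, Tjp1 and F11r as the remaining tight-junction genes (3 genes). The series holds ileal RNA of 12 C57BL/6 mice, 16 weeks old, after 10 weeks on their diet, with 3 mice in each of 4 groups. The groups were HF-Sugar (a high-fat diet with 60% of the energy as fat, and a 23% w/v sugar drink), HF (the same high-fat diet with plain water), NF-Sugar (a normal-fat diet with the 23% sugar drink) and NF (the normal-fat diet with plain water). By the study's methods, the combination of high-fat diet and sucrose solution served as its Western diet and the normal diet with plain water as its control. No group carried a mutation or a transgene by the labels, and each library came from 1 mouse.

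Tight junctions close the space between neighbouring epithelial cells near the lumen, and claudins are the membrane proteins that set which ions and how much water may pass there. Claudin-2 and claudin-15 form channels for small cations and are known in the small intestine for the sodium that returns to the lumen between the cells, while sealing claudins narrow the same path. Occludin spans the membrane beside them, ZO-1 (the product of Tjp1) ties claudins and occludin to the actin belt, and the adhesion molecule JAM-A (the product of F11r) takes part in placing the junction during cell contact.

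Values are in RPKM, reads normalized to exon length and library depth, so that levels of different genes can be set side by side. The steps between low values gave library depths of 15.26 to 38.97 M reads. NF replicate 3, at 24.14 M reads, held 37295 genes above 0, against 27913 to 32414 in the other libraries, for a reason that was not tested. Recovered reads of the members ran from 65 to 231 per library for Cldn8 up to 9558 to 33074 for Cldn7, so counting error was 12.4% at the lowest Cldn8 value and at most 3.89% for the other members. Reads were whole within 0.1 in every library for 8 members, but not for Cldn7 and Cldn15, whose reads are estimates. Of the defining ileal markers, Slc10a2, the bile acid importer, averaged 90.8 RPKM, whereas Hoxb13, a marker of the distal colon, averaged 0.0458 RPKM. The colon gene Car1 stood at 34.0 RPKM in HF-Sugar replicate 3, 30.9 in NF-Sugar replicate 3, 17.2 in NF replicate 2 and 241 in NF replicate 3, and at 0.103 RPKM or less in the other 8 libraries. Its part in the values below was not tested. All 12 libraries held RNA of the Y-linked gene Ddx3y (2.06 to 3.31 RPKM) and at most 0.051 RPKM of Xist, the RNA of the inactive X chromosome, which bears on Cldn2, an X-linked gene. On the first principal component, which held 40.2% of the variance, 4 libraries stood apart from the other 8 (HF-Sugar replicate 2, HF replicate 2, NF-Sugar replicate 1 and NF replicate 2). For HF-Sugar against NF, member differences are also given without them where this changed a direction. Not every such change is given for the other comparisons.

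The pore-forming pair is shown by its promoters, because Cldn2 and Cldn15 had differences of opposite sign in several comparisons below. The lines give the 250 bases before the transcription start by RefSeq (build GRCm38.p6), 5′ to 3′ on the gene's own strand, with each ATAAA or its reverse complement TTTAT, the core letters preferred by the intestinal homeobox factor CDX2, in capitals. They lie at chrX:139800558-139800807 for Cldn2 and chr5:136967619-136967868 for Cldn15, both on the plus strand.
Cldn2: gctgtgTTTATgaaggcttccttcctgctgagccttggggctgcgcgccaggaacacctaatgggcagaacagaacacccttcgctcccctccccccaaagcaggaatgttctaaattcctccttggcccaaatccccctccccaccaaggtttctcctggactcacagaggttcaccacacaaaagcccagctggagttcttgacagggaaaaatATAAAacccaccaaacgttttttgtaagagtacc
Cldn15: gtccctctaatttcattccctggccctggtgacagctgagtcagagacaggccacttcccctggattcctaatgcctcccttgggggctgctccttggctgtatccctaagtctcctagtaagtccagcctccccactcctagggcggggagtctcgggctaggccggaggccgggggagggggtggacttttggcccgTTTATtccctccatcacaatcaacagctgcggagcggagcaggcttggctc
Cldn2 held 2 such matches, whose first bases lay at -244 and -34 from the start, and Cldn15 held 1, at -51 (-1 is the base just before the start). The second match of Cldn2 overlapped the longer TATAAA, the letters of a TATA box, which 12.4% of 32851 promoters of this length held on either strand and which was found in no other member. The letters ATAAA themselves were in 37.3% of all promoters, and among the 8 members with an entry they were in those of Cldn2, Cldn15 and Tjp1. GGGCGG, the GC box, was in 7 of the 8 (all but Cldn2) against 32.7% of all promoters. AACNNGTT, a grainyhead-like motif, was in 0 of the 8 and in 3.64% of all promoters. Both strands were searched each time, and a match describes letters and no bound site.

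The ileum held a steep order of junction transcripts. Cldn3, a sealing claudin, was the most abundant member at 579 ± 95.3 RPKM over all 12 libraries (mean ± SD). Cldn7, which also lies along the basolateral membrane, followed at 378 ± 63.4 RPKM, and Cldn4 at 143 ± 34.5 RPKM. Cldn15 stood at 140 ± 25.0 RPKM, F11r at 78.5 ± 7.60 RPKM and Cldn2 at 56.1 ± 13.2 RPKM. The least abundant were Cldn23 at 24.0 ± 2.71 RPKM, Ocln at 15.4 ± 1.75 RPKM, Tjp1 at 6.34 ± 1.11 RPKM and Cldn8, a claudin better known from the distal colon and the kidney, at 2.28 ± 0.657 RPKM. The mean of the highest member was 254 times that of the lowest. Of the 9 neighbouring pairs in this order, 7 held in 12 of 12 libraries. Cldn4 exceeded Cldn15 in only 7 of 12 libraries, so those neighbours did not differ beyond their spread, and F11r exceeded Cldn2 in 11 of 12, the exception being HF-Sugar replicate 3, with 67.7 RPKM of F11r and 73.9 RPKM of Cldn2. The table held 32 claudin genes, of which 9 reached a mean of at least 1 RPKM. These were the 7 claudins followed here, Cldn5, a claudin of blood vessel walls, at 6.26 RPKM and Cldn12 at 6.14 RPKM, whereas Cldn1, a major sealing claudin of skin, stood at 0.115 RPKM. The 7 claudins made up 98.63% to 99.30% of all claudin RPKM in each library.

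**Figure D1:**
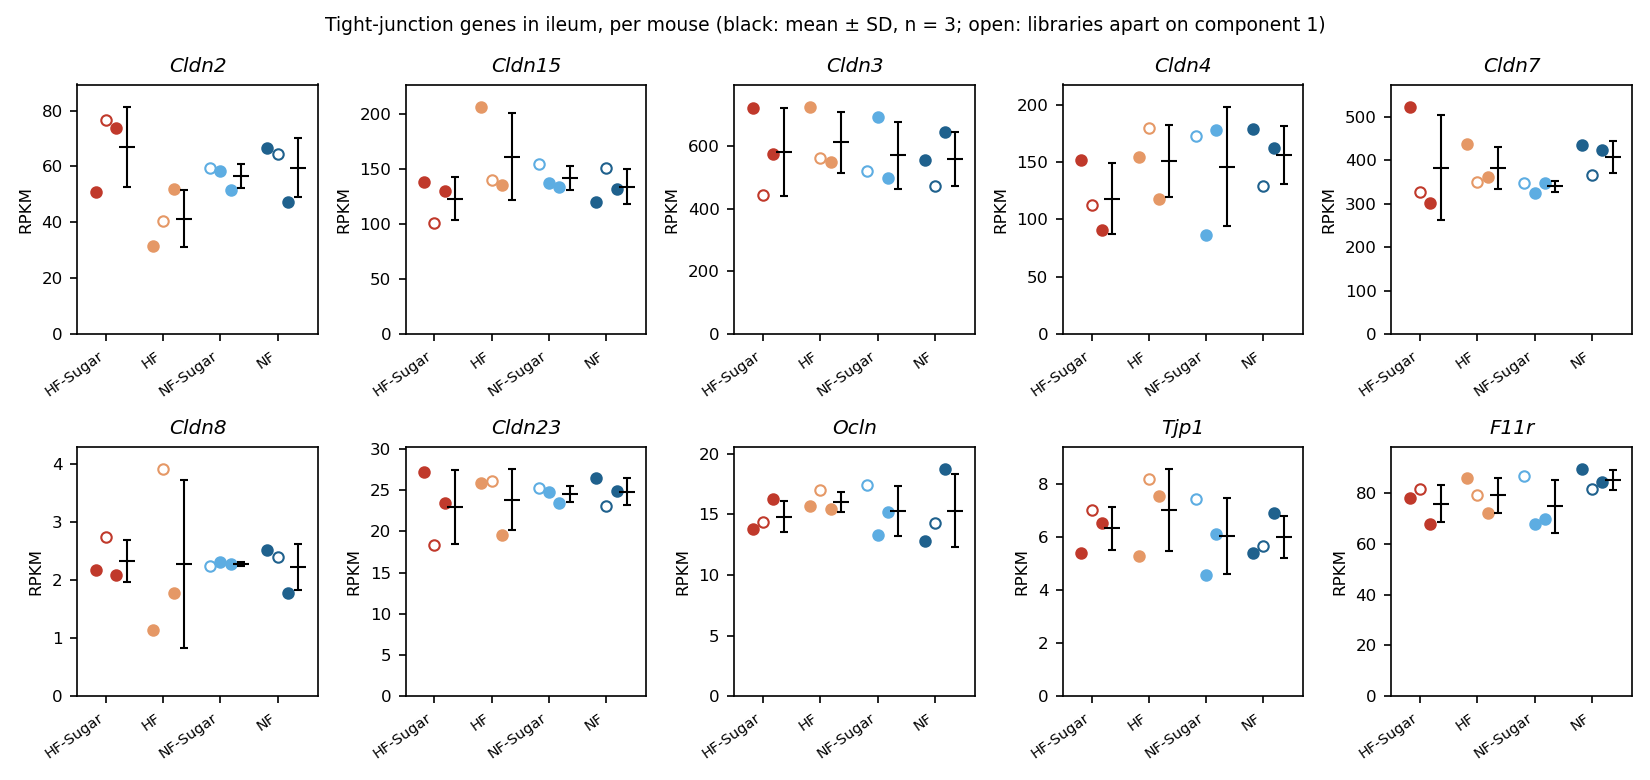
RPKM (vertical axes, from 0) of the 10 members by diet group (horizontal axes), with 1 circle per mouse, open for the 4 libraries apart on the first principal component, and a black cross-bar for each group's mean with its SD. In these deposited RPKM, only NF-Sugar and NF for Cldn7 do not overlap among the 5 pairs of groups compared. The lowest Cldn2 value, 31.6 RPKM, lies in the HF group.

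The main question of the design is whether the 2 dietary components together, high fat and sugar, altered these genes relative to the control diet. No member passed the test in HF-Sugar against NF (0 of 10 at an adjusted p under 0.05, limma on log2 values with Benjamini-Hochberg adjustment), as was the case for all genes (0.0% of 17662 called). At an unadjusted p under 0.05, limma called 0 of 10 members and 781 genes in all (4.42%), and limma-voom on recovered reads called 0 genes after adjustment. None of the members had HF-Sugar and NF values that did not overlap, against 10.2% of all genes. The members' log2 differences ran from -0.47 for Cldn4 to 0.11 for Cldn2, with a median of -0.127 against -0.009 for all genes tested. The number of members lower in HF-Sugar was 7 of 10 (against 51.9% of all genes), but this count went to 6 with RPKM as deposited and to 1 when libraries were scaled to equal epithelial markers, which shifted the difference of a gene by a median of 0.21 over all genes tested. Relative to the median of all genes under that scaling, the members' median was -0.05.

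Cldn4, a sealing claudin, showed the lowest difference of the 10. It stood at 152, 113 and 90.6 RPKM in HF-Sugar mice, against 179, 129 and 162 RPKM in NF mice. The highest HF-Sugar value lay within the NF range, so the groups overlapped, although all 3 HF-Sugar values were under the NF mean. The fold of the means was 0.757, and the log2 difference of -0.47 ± 0.32 (SE, n = 3 each, 95% interval -1.18 to 0.24) did not pass (adjusted p = 0.957 by limma, exact permutation p = 0.3, two-sided). F11r stood at 77.8, 81.5 and 67.7 RPKM in HF-Sugar mice, against 89.1, 81.4 and 84.1 RPKM in NF mice. Here too the groups touched, at 81.5 and 81.4 RPKM, and the log2 difference was -0.22 ± 0.17 (adjusted p = 0.957 by limma, exact permutation p = 0.3 for n = 3 each).

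Cldn3 stood at 721, 442 and 573 RPKM in HF-Sugar mice, against 554, 473 and 645 RPKM in NF mice. The HF-Sugar mice held both the highest and the lowest of these 6 values. The log2 difference was -0.02 ± 0.21, with an interval of -0.49 to 0.46. Cldn7 stood at 522, 326 and 301 RPKM in HF-Sugar mice, against 436, 366 and 423 RPKM in NF mice, a log2 difference of -0.19 ± 0.22. HF-Sugar replicate 1 alone exceeded the NF range, and without it the difference was -0.44, the lowest of the leave-one-out values. Among the remaining members, the log2 differences were -0.19 for Cldn15, -0.18 for Cldn23, -0.08 for Ocln, 0.00 for Cldn8, 0.02 for Tjp1 and 0.11 for Cldn2, with adjusted p of 0.964 to 0.999 by limma. The 95% intervals stayed under a doubling for 10 of 10 members and above a halving (a fold of 0.5) for 9 of 10, and the exception was Cldn4, whose interval reached a fold of 0.441. These folds are on the log2(scaled RPKM + 1) scale, which understates changes of the low gene Cldn8. With 3 mice against 3, the exact test cannot go below p = 0.1.

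**Figure D2:**
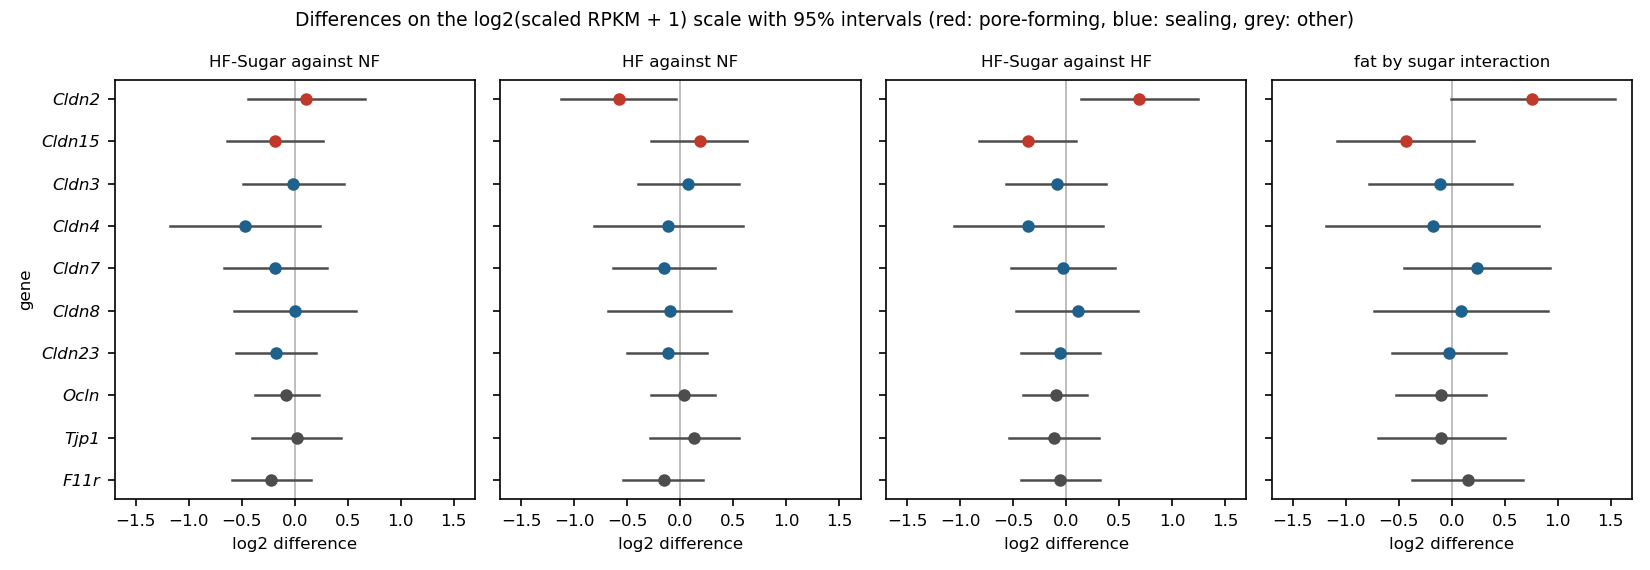
Log2 differences (horizontal axes) of the 10 members (vertical axis) in HF-Sugar against NF, HF against NF, HF-Sugar against HF and the fat by sugar interaction, with 95% intervals as lines and points in red for pore-forming claudins, blue for sealing claudins and grey for the rest. Only the intervals of Cldn2 in HF against NF (-1.13 to -0.04) and HF-Sugar against HF (0.14 to 1.24) leave out 0.

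Cldn2 gave the widest span between diet groups, and it did so in the HF mice. It stood at 50.7, 76.5 and 73.9 RPKM in HF-Sugar mice, at 31.6, 40.5 and 51.9 RPKM in HF mice, at 59.5, 58.3 and 51.7 RPKM in NF-Sugar mice and at 66.7, 64.3 and 47.3 RPKM in NF mice. In deposited RPKM, the 2 lowest values of the 12 libraries were HF replicates 1 and 2, and the 2 highest were HF-Sugar replicates 2 and 3. After scaling, NF replicates 1 and 2 (6.169 and 6.157 on the log2 scale) stood above HF-Sugar replicate 3 (6.134). The remaining HF value, 51.9 RPKM, lay above the lowest value of each other group. No pair of groups was thus free of overlap in deposited RPKM. On the scaled log2 values that were tested, HF mice (4.998, 5.366 and 5.685) lay under all HF-Sugar mice (5.695, 6.296 and 6.134). They also lay under the lowest NF-Sugar value, 5.706, but overlapped NF mice, whose lowest value was 5.474. In HF against NF the means were 41.3 ± 10.2 RPKM in HF mice and 59.5 ± 10.6 RPKM in NF mice (SD, n = 3 each), a fold of 0.695. The log2 difference of -0.58 ± 0.25 had an unadjusted p of 0.0389 and an adjusted p of 1.0 by limma (exact permutation p = 0.2 for n = 3 each). It was the only member under 0.05 unadjusted, 1 of 10, where 3.78% of all genes were, and 0 of 10 members passed after adjustment (0.0% of all genes, and 0 genes by limma-voom). In HF-Sugar against HF the mean was 67.0 ± 14.2 RPKM in HF-Sugar mice, set against the same HF mice, a fold of 1.62, and the log2 difference was 0.69 ± 0.25. The unadjusted p was 0.0181 and the adjusted p 1.0 by limma, with an exact permutation p of 0.1 for n = 3 each, the smallest this design allows. Again 1 of 10 members was under 0.05 unadjusted (4.46% of all genes) and 0 of 10 passed after adjustment, where 0.00566% of all genes did, that is 1 gene, and limma-voom called 0. That gene, the cytokine gene Il1b, was named after its values were seen. Its values came to 123.92, 141.46 and 92.05 reads in HF-Sugar replicates 1, 2 and 3, none of them whole within 0.03 reads, and to whole reads in the other 9 libraries. Over all genes, 78.4% of the recovered values checked were whole within 0.03. That share pools genes and libraries, so it does not tell how often a gene is non-whole in 1 group only. The reason for the Il1b values was not tested.

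Because both comparisons use the same 3 HF mice, they are not independent of each other. Whether sugar acted differently under the high-fat than under the normal-fat diet was tested by the interaction, which for Cldn2 was 0.76 ± 0.35 on the log2 scale with an interval of -0.01 to 1.54 (limma's unadjusted p = 0.0527 and adjusted p = 1.0, with no permutation test run). No member passed this test (0 of 10, and 0 of 10 unadjusted, against 0.0% and 2.60% of all genes, and 0 genes by limma-voom). The Cldn2 differences held their direction when any 1 library was left out (-0.81 to -0.41 in HF against NF, and 0.52 to 0.87 in HF-Sugar against HF) and without the 4 libraries apart (-0.48 and 0.57).

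Cldn15, the second pore former and the more abundant of the pair, lay on the other side of 0 in these comparisons. It stood at 138, 101 and 130 RPKM in HF-Sugar mice, at 206, 140 and 135 RPKM in HF mice, at 154, 137 and 134 RPKM in NF-Sugar mice and at 120, 151 and 132 RPKM in NF mice. HF replicate 1 was the highest of the 12, and this same mouse had the lowest Cldn2. The log2 differences were 0.18 ± 0.21 in HF against NF and -0.36 ± 0.21 in HF-Sugar against HF, with an interaction of -0.43 ± 0.29 (adjusted p = 1.0 by limma in each). Without HF replicate 1 the HF against NF difference was -0.01, so its direction rested on that mouse.

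The ratio of Cldn2 to Cldn15 RPKM put the pair in 1 measure. It was 0.367, 0.756 and 0.570 in HF-Sugar mice, 0.153, 0.289 and 0.383 in HF mice, 0.386, 0.425 and 0.387 in NF-Sugar mice and 0.558, 0.426 and 0.357 in NF mice. HF mice held the 2 lowest ratios, and their remaining value lay within the range of HF-Sugar and NF mice and just under that of NF-Sugar mice. The ratio was chosen as a description and was not tested.

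Markers of the absorptive cells were read in the same groups, from a general and an ileal list, which did not run alike. Of 10 enterocyte markers, 10 were lower in HF-Sugar than in HF (median log2 difference -0.78), and 9 were higher in HF than in NF (median 0.32), or 10 and 10 under each of the 3 other scalings, with 0 called in either comparison and 0 under an unadjusted p of 0.05 by limma. Their mean log2 level was 7.86, 7.62 and 7.01 in HF-Sugar mice, 9.28, 7.31 and 8.45 in HF mice, and 8.10, 7.75 and 8.03 in NF mice. The highest of these was HF replicate 1, the mouse with the lowest Cldn2 and the highest Cldn15, whereas HF replicate 2, at 7.31, lay under all NF mice. Of 8 ileal enterocyte markers, 2 were higher and 6 lower in HF than in NF (median log2 difference -0.23, 0 called, 2 under 0.05 unadjusted by limma). In HF-Sugar against HF, 5 of these 8 were higher and 3 lower (median 0.18, 0 called, 0 under 0.05 unadjusted by limma). Of 10 crypt and proliferation markers, 5 were higher and 5 lower in HF than in NF (median log2 difference 0.02), a split that became 7 and 3 with RPKM as deposited, 6 and 4 with upper-quartile scaling and 10 and 0 with epithelial markers set equal. In HF-Sugar against HF, 7 were higher and 3 lower (median 0.15), or 8 and 2 with epithelial markers set equal. In HF-Sugar against NF, where Cldn2 differed by 0.11, 10 of 10 were higher (median 0.17, and 10 of 10 under each of the 3 other scalings). In all 3 comparisons 0 were called, and 0 were under 0.05 unadjusted by limma. Of 5 colon markers tested, 2 were higher and 3 lower in HF than in NF (median log2 difference -0.42). In HF-Sugar against HF, 4 were higher and 1 lower (median 0.32). In each of these, 0 were called and 1 was under 0.05 unadjusted by limma. The mean log2 level of the colon list was 3.17, 4.09 and 3.90 in HF mice and at least 4.22 in every other library. Cldn2 is known as a claudin of the crypt, and in tissue RNA fewer cells of a type and less RNA per cell cannot be told apart. Correlations with the enterocyte and crypt lists are given below, over 8 libraries. The part of these markers in the claudin values was not tested.

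As a summed share of the claudin pool the 2 pore formers did not separate the diets. Cldn2 and Cldn15 together made up 11.7%, 16.5% and 17.1% of the summed RPKM of the 7 claudins in HF-Sugar mice, 15.1%, 13.9% and 15.2% in HF mice, 16.7%, 14.8% and 15.0% in NF-Sugar mice, and 13.5%, 17.8% and 12.5% in NF mice. The ranges of HF-Sugar and NF mice each covered the HF and NF-Sugar ranges. The mean share was 15.1 ± 2.96% in HF-Sugar mice, 14.7 ± 0.723% in HF mice, 15.5 ± 1.04% in NF-Sugar mice and 14.6 ± 2.82% in NF mice (SD, n = 3 each). The sum hides opposite orders of the pair. Cldn2 alone averaged 5.47%, 3.10%, 4.41% and 4.48% in HF-Sugar, HF, NF-Sugar and NF mice, and Cldn15 alone 9.61%, 11.6%, 11.1% and 10.1%. Within the pool, Cldn3 took 39.1% to 52.2% and Cldn7 24.5% to 32.4% across the 12 libraries. Cldn4 varied more, between 6.50% in NF-Sugar replicate 2 and 14.4% in NF-Sugar replicate 3, 2 mice of the same group. The summed RPKM of the 7 claudins ran between 1080 in HF-Sugar replicate 2 and 1614 in HF-Sugar replicate 1, again within 1 group.

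**Figure D3:**
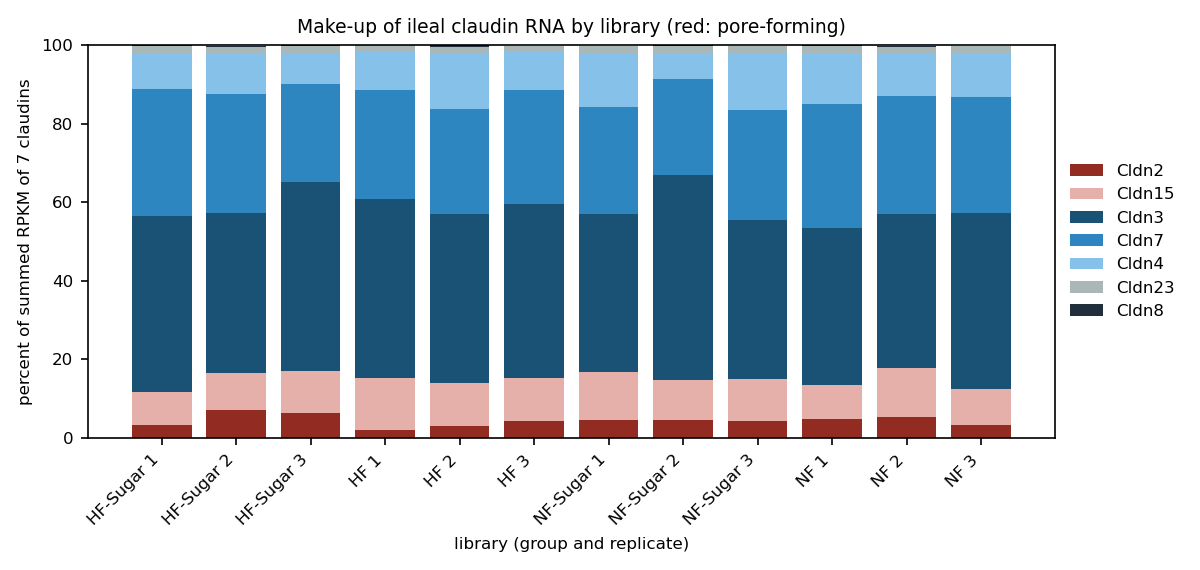
Share of each of 7 claudins in their summed RPKM (vertical axis, percent) for each of the 12 libraries (horizontal axis), with the pore-forming Cldn2 and Cldn15 in red shades at the base. The red part lies between 11.7% and 17.8% in all libraries, and Cldn3 is the widest band in each.

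The sugar drink alone was read in NF-Sugar against NF. No member passed (0 of 10, 0.0% of all genes, 0 genes by limma-voom), and 0 of 10 were under 0.05 unadjusted against 1.91% of all genes. Cldn7 was the only member with groups that did not overlap, 1 of 10 where 5.86% of all genes showed no overlap. It stood at 348, 324 and 347 RPKM in NF-Sugar mice, against 436, 366 and 423 RPKM in NF mice. All 3 NF-Sugar values were below the lowest NF value, and the fold of the means was 0.832. The log2 difference was -0.27 ± 0.22 (adjusted p = 1.0 by limma, exact permutation p = 0.1 for n = 3 each, the smallest this design allows). The highest member difference was that of Cldn15, 0.07.

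High fat added to sugar was read in HF-Sugar against NF-Sugar, where 0 of 10 members passed and 0 of 10 were free of overlap (0.0% and 5.93% of all genes), with 0 of 10 under 0.05 unadjusted (1.72% of all genes) and 0 genes by limma-voom. Differences ran from -0.30 for Cldn4 to 0.18 for Cldn2. In HF against NF and HF-Sugar against HF, 0 of 10 members were free of overlap in deposited RPKM as well, against 8.35% and 9.83% of all genes. Pooled over both drinks, the effect of the high-fat diet ran from -0.21 for Cldn4 to 0.08 for Tjp1, and pooled over both diets, that of the sugar drink ran from -0.26 for Cldn4 to 0.31 for Cldn2. No member passed either test (0 of 10 each, 0.0% of all genes each, 0 genes by limma-voom), and 0 of 10 were under 0.05 unadjusted in each (2.66% and 3.71% of all genes). All pooled intervals stayed between folds of 0.589 and 1.62. By exact permutation the lowest member p was 0.265 in the fat effect (Cldn23) and 0.185 in the sugar effect (Cldn2).

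The spread within groups set what could be seen. Cldn4 gave 173, 86.2 and 178 RPKM in NF-Sugar mice, so that 1 mouse had less than the other 2 by a wide margin, and its values in HF mice were 154, 180 and 118 RPKM. Cldn8 varied most in relative terms, with 1.15, 3.91 and 1.78 RPKM in HF mice against 2.52, 2.41 and 1.78 RPKM in NF mice. The HF value of 3.91 RPKM, the highest of the 12, came from HF replicate 2, 1 of the libraries apart. By contrast, Ocln ran only between 12.8 and 18.7 RPKM, F11r between 67.5 and 89.1 RPKM, Cldn23 between 18.3 and 27.2 RPKM and Tjp1 between 4.56 and 8.20 RPKM over the 12 libraries. The 4 libraries apart averaged 499 RPKM of Cldn3 (442 to 562) against 619 RPKM (498 to 723) in the other 8, and 2.83 RPKM of Cldn8 (2.25 to 3.91) against 2.01 RPKM (1.15 to 2.52).

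General epithelial markers were lower in HF-Sugar than in NF for 10 of 10 genes, Epcam, Cdh1 and the keratins among them. Their median log2 difference was -0.28, with 0 called and 2 under 0.05 unadjusted by limma. The mean log2 level of the list was 8.53 to 8.72 in HF-Sugar mice and 8.87 to 8.94 in NF mice, with no overlap. The scaling on these markers sets their mean equal across libraries by construction, and 5 of 10 were then lower. None of the 10 junction genes is in that list, and its part in the members' differences was not tested.

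The wider junction was read from 6 lists of other claudins, membrane proteins, scaffolds, actomyosin regulators, adherens junction and desmosome genes, and claudin partners. Of their 87 genes in the table, 70 were tested, and 0 were called in any of the 8 contrasts. In HF-Sugar against NF, 43 were lower and 27 higher, a split that became 34 and 36 with RPKM as deposited or with upper-quartile scaling, and 6 and 64 with epithelial markers set equal. At an unadjusted p under 0.05 by limma there were 3 of 70, against 4.42% of all genes. These were Marveld2, which encodes tricellulin, the protein of the corners where cells meet, Rock1, a kinase that drives contraction of the actin belt, and Pkp3, a desmosome plaque gene. Marveld2 was at 11.1 ± 1.79 RPKM in HF-Sugar mice and 8.32 ± 0.856 RPKM in NF mice, a log2 difference of 0.32 ± 0.12 (adjusted p = 0.957 by limma). It stood 0.28 and 0.31 higher than NF in HF and in NF-Sugar mice as well, in comparisons that share the NF mice.

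Rock1 was at 2.44 ± 0.379 RPKM in HF-Sugar mice and 3.02 ± 0.228 RPKM in NF mice (log2 difference -0.27 ± 0.11), with an adjusted p of 0.957 by limma. Pkp3 was at 26.5 ± 3.17 RPKM in HF-Sugar mice and 32.2 ± 4.92 RPKM in NF mice (-0.32 ± 0.14, adjusted p = 0.957 by limma). Tjp3, which encodes the related scaffold ZO-3, differed by 0.23 ± 0.20. Epcam, an adhesion protein known to stabilise claudin-7, differed by -0.26 ± 0.15, and Spint2, an inhibitor of the protease matriptase, by -0.36 ± 0.17. The vascular Cldn5 was at 6.89 ± 0.551 RPKM in HF-Sugar mice and 4.12 ± 1.54 RPKM in NF mice, a log2 difference of 0.62 ± 0.32 (adjusted p = 0.957 by limma). Endothelial markers were higher in 9 of 10 genes beside it (median 0.25, 0 called, 6 under 0.05 unadjusted), 9 or 10 of 10 under the other scalings, and their part in Cldn5 was not tested.

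**Figure D4:**
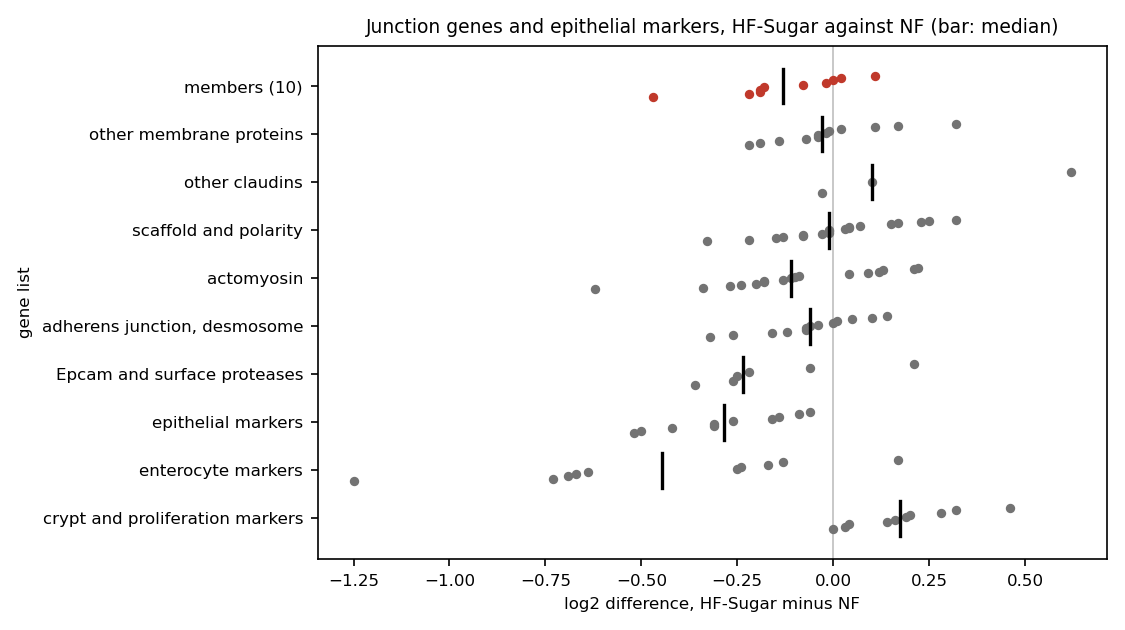
Log2 difference in HF-Sugar against NF (horizontal axis) for each tested gene of the members, the 6 lists of other junction genes and 3 lists of epithelial cell markers (vertical axis), with 1 dot per gene and a bar at each list's median. The members' median is -0.127, that of the epithelial markers -0.28 and that of the enterocyte markers -0.44, under the main scaling.

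Members were also compared with each other across the 8 libraries that did not stand apart, on log2(scaled RPKM + 1). Of 45 pairs, 0 had an adjusted p under 0.05 for Pearson's r. Cldn2 and Cldn8 gave r = 0.86 and Spearman's rho = 0.86 (permutation p = 0.00935 and 0.0107, adjusted 0.266 and 0.231), but r was 0.40 without the 2 libraries farthest from the median of Cldn2. Cldn7 and F11r gave r = 0.82 and rho = 0.93 (permutation p = 0.0118 and 0.00223, adjusted 0.266 and 0.1), and r was 0.99 without 2 libraries. Cldn2 and Cldn15 gave r = -0.77 and rho = -0.43 (permutation p = 0.0436 and 0.299, adjusted 0.323 and 0.641), and r was -0.08 without 2 libraries, so the relation rested on those. Against 8 lists of cell markers, 80 relations were computed and none passed. Cldn4 with the crypt and proliferation markers gave r = -0.90 and rho = -0.69 (permutation p = 0.00481 and 0.0694, adjusted 0.368 and 0.925), with r = -0.58 without 2 libraries. Cldn2 with the enterocyte markers gave r = -0.73 and rho = -0.50 (permutation p = 0.0378 and 0.216, adjusted 0.655 and 0.971). Cldn15 with the same markers gave r = 0.63 (permutation p = 0.0937). Cldn2 with the crypt list gave r = 0.32 (permutation p = 0.45). F11r with the epithelial markers gave r = 0.84 (permutation p = 0.0092, adjusted 0.368), with r = 0.48 without 2 libraries. These libraries come from 4 diet groups, and 8 are too few to follow the relations within a group.

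Among 7098 genes of at least 5 RPKM, those whose log2 values ran closest to Cldn2 over the same 8 libraries were Gm38316 (Pearson's r = 0.971, Spearman's rho = 0.90), Zdhhc13 (r = 0.954, rho = 1.0) and Eif2b1 (r = 0.949, rho = 0.86). For Cldn15 they were Stxbp2 (r = 0.928, rho = 0.52), Bad (r = 0.922, rho = 0.81) and Rbck1 (r = 0.909, rho = 0.38). The closest genes to F11r began with Tmem125 (r = 0.959, rho = 0.93). The highest of so many correlations are given as a description of likeness over 8 libraries.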

How the data were processed

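Ileal RNA of 12 mice was sequenced on the Ion Proton, and by the paper's methods the authors mapped reads with STAR in Partek Flow to mm10 and used DESeq2 for their tests. The deposited table and 12 per-sample files hold the same RPKM values, made by the authors. The unit is not named in the sources used here and rests on low values that were whole reads, within 0.03, in 88.2% to 90% of cases once exon length was allowed for. Of 44231 rows, 26 with bare numbers or dates as names were left out (at most 0.135% of a library's RPKM). The authors' strand setting was not given in the sources used here. Cldn3 overlaps an antisense gene at its 3′ end, so their reads may not be told apart.

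RPKM were scaled by TMM (factors 0.918 to 1.09), and genes with at least 0.5 RPKM in 3 libraries were tested by limma (3.58.1, R 4.3.3) on log2(scaled RPKM + 1) over 4 groups, with Benjamini-Hochberg adjustment over 17662 genes and a threshold of 0.05. Single members were also tested by two-sided exact permutation, in pairs of groups and, for the pooled fat and sugar effects, within the levels of the other factor. Levels are given as deposited RPKM, and overlap of groups was counted on the same values for members and for all genes. Pairing of equal replicate numbers was checked from the data: the correlations of deviations from group means were 0.186, 0.512 and 0.215 for HF-Sugar with NF, and 0.487, 0.557 and 0.131 for HF-Sugar with HF. The replicate block was an alternative. The labels do not say whether mice shared cages or litters. Other named junction genes were, per list, the 3 highest in RPKM and up to 3 with the smallest unadjusted p in HF-Sugar against NF or the fat effect, and not all of them are described. The fit was tested on simulated data. Members and lists were chosen with earlier results of these data known.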

Additional observations from a re-analysis of the deposited data

How the results depend on the processing

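No member was called in any of the 8 contrasts under the alternatives run (1882 member values, 0 past the threshold, lowest adjusted p = 0.473 by limma for Cldn2 in HF-Sugar against NF with epithelial markers set equal), and 165 of these values turned direction, all of them with a main difference of at most 0.24 in size. In HF-Sugar against NF the direction turned as follows, with causes not tested. Cldn3 was 0.04 with RPKM as deposited, 0.04 with upper-quartile scaling, 0.26 with epithelial markers set equal and 0.08 without the 4 libraries apart. With epithelial markers set equal, Cldn15, Cldn7 and Cldn23 were each 0.09, Ocln 0.18 and F11r 0.05. That scaling shifted the difference of a gene by a median of 0.21 over all genes, and by 0.135 in HF against NF, 0.121 in NF-Sugar against NF and 0.113 in the fat effect. Cldn8 was 0.0 with a pseudocount of 5, and without the libraries apart Cldn8 was -0.02, Cldn15 0.06 and Tjp1 -0.06. Leaving out 1 library gave -0.20 to 0.14 for Cldn3, -0.12 to 0.28 for Cldn2, -0.15 to 0.09 for Cldn8, -0.07 to 0.10 for Tjp1, -0.44 to 0.00 for Cldn7 and -0.16 to 0.00 for Ocln. It gave -0.02 to 0.20 for Cldn15 in NF-Sugar against NF, -0.01 to 0.31 for Cldn15 in HF against NF and 0.00 to 0.17 for Tjp1 in the fat effect.

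Over all genes, calls in HF-Sugar against NF went to 1 with epithelial markers set equal, 1 with a pseudocount of 5 and 4 with no filter. Without the filter they were also 4 in HF against NF and 4 in NF-Sugar against NF. The 1 call in HF-Sugar against HF went to 0 with a pseudocount of 0.1, no filter, a mean RPKM of at least 5 (which drops Cldn8), limma-voom, the library cluster as covariate, without the libraries apart, with pairs of groups only, and at 2-fold with adjusted p under 0.01. HF-Sugar against NF-Sugar gave 1 with upper-quartile scaling and 1 with a pseudocount of 5. Leaving out 1 library gave 0 to 1 genes in each contrast, except 0 to 2 in HF-Sugar against HF and 0 in the fat effect. The pore-forming share without Cldn7 and Cldn23 was 21.8% in HF-Sugar, 20.9% in HF, 21.7% in NF-Sugar and 21.6% in NF mice. Leaving out 1 library gave a main share of 14.1% to 16.8% in HF-Sugar, 14.5% to 15.1% in HF, 14.9% to 15.8% in NF-Sugar and 13.0% to 15.7% in NF mice.

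With the replicate block, 0 of 10 members were called in each contrast, the call in HF-Sugar against HF stayed at 1 gene, and no other call changed. In HF-Sugar against HF, 6 of 6 libraries correlated best with their own number, and 4 of 6 did in HF-Sugar against NF and in HF against NF. In NF-Sugar against NF and HF-Sugar against NF-Sugar 1 and 0 of 6 did, so the numbers did not pair those samples. With 3 mice a group, the exact test of a pair of groups cannot go below 0.1 (0.005 for the pooled fat and sugar effects), and Cldn8 at 65 reads has the largest counting error.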
